A study of Rattus norvegicus with 2 samples.

Results

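Isg15, Ifit1, Bst2, Irf7, Irf1 and Psmb9 are 6 genes whose transcription responds to interferons. They were taken by symbol from the 18147 genes listed for both libraries of a single-cell RNA-seq study of rat joint cartilage, and were chosen because earlier results of these data placed them in opposite directions in different cell types. All 6 were found in both files. They were followed across 5 cell types, named from marker genes: myeloid progenitors, monocytes, macrophages, synovial lining cells and endothelium.

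The study compared Lewis rats that received no treatment, called sham in its design text, with Lewis rats collected at day 14 after they were given Complete Freund's Adjuvant and type II collagen, a collagen-induced arthritis (CIA) model. Cartilage was dissociated with TrypLE and loaded on a Chromium 3' kit. Each group is 1 library, the number of animals in it is not given in the sources used here, and a library difference cannot be told apart from the condition. No test between groups was therefore possible, no p-value is given, and every interval below is a 95% interval that covers counting error only. The control library kept 5349 cells and the CIA library 8409, with 52 barcodes shared by both. The libraries hold many cells other than chondrocytes: a gate on chondrocyte markers held 326 control and 36 CIA cells.

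Interferons are cytokines that act through JAK kinases and STAT transcription factors. Type I interferons drive genes with an interferon-stimulated response element (ISRE), whereas interferon gamma drives genes with a gamma-activated site (GAS). Isg15 encodes a ubiquitin-like protein that is joined to other proteins. Ifit1 binds foreign RNA, and Bst2 (tetherin) holds budding virus particles at the cell surface. Irf7 is the transcription factor that amplifies type I interferon production. Irf1 is a transcription factor induced by interferon gamma, by tumour necrosis factor and by other stimuli, and Psmb9 is the immunoproteasome subunit that helps to make peptides for MHC class I.

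RefSeq promoter windows, from 250 bases before to 50 after the start of the gene in build GRCr8, were matched by symbol for 4 of the 6 genes. The data themselves were mapped to mRatBN7.2, per the submitters' processing notes. The following 3 windows are shown because they hold different elements, and capitals mark every match to the ISRE core (GAAANNGAAA or its reverse complement TTTCNNTTTC) or to the GAS core (TTCNNNGAA). Bst2 lies at chr16:18254918-18255217 on the minus strand, Irf7 at chr1:205799974-205800273 on the minus strand and Irf1 at chr10:38417685-38417984 on the plus strand.
Bst2: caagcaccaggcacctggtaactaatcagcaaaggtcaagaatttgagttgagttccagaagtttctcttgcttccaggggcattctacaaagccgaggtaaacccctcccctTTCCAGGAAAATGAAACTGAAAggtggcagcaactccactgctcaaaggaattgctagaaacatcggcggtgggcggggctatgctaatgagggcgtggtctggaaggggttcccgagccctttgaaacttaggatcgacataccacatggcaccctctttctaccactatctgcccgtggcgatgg
Irf7: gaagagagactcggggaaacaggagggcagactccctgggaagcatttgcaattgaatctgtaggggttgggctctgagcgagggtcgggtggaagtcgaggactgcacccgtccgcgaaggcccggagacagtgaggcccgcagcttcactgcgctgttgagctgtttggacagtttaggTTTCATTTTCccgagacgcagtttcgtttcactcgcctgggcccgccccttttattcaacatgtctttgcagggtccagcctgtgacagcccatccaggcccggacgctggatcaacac
Irf1: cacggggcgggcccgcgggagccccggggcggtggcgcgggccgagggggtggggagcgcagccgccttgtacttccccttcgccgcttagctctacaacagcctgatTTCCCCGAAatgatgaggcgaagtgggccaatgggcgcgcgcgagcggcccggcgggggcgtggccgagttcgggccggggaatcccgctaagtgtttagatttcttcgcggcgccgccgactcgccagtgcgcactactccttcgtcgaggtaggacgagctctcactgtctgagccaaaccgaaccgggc
In Bst2, a pair of overlapping ISRE cores begins 131 and 125 bases before the start, and a GAS core that overlaps them begins at 137. Irf7 has 1 ISRE core, on the reverse strand, at 69 bases before the start. Irf1 has no ISRE core in the window and 1 GAS core at 142. The Psmb9 window (chr20:4668750-4669049, plus strand) has neither; it overlaps the window of its divergent neighbour Tap1, the peptide transporter gene, in which an ISRE core begins 121 bases before the start. Of the 33469 promoter windows of this length in the table, 3.92% hold an ISRE core and 8.87% a GAS core on either strand. These are matches of letters, not measured binding.

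The genes differed in level between the cell types. Values are UMI counts in the summed cells of a type, scaled to the same total in each sum (CPM). The gates held 24 control and 14 CIA progenitors, 157 and 156 monocytes, 923 and 2650 macrophages, 179 and 492 lining cells, and 665 and 535 endothelial cells. Isg15 stood at 66.5 CPM in control and 63.9 CPM in CIA endothelium. It was lower in each of the other types, at 22.8 and 5.92 CPM in lining, 13.7 and 9.60 in macrophages, and 9.46 and 16.5 in monocytes. Its control levels in macrophages (11.9 to 15.7), monocytes (5.04 to 16.2) and progenitors (4.03 to 29.0) had overlapping intervals and gave no order. Endothelium held 49.0% of all Isg15 UMIs of the control library with 12.4% of its cells, and 33.7% with 6.36% in the CIA library.

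**Figure D1:**
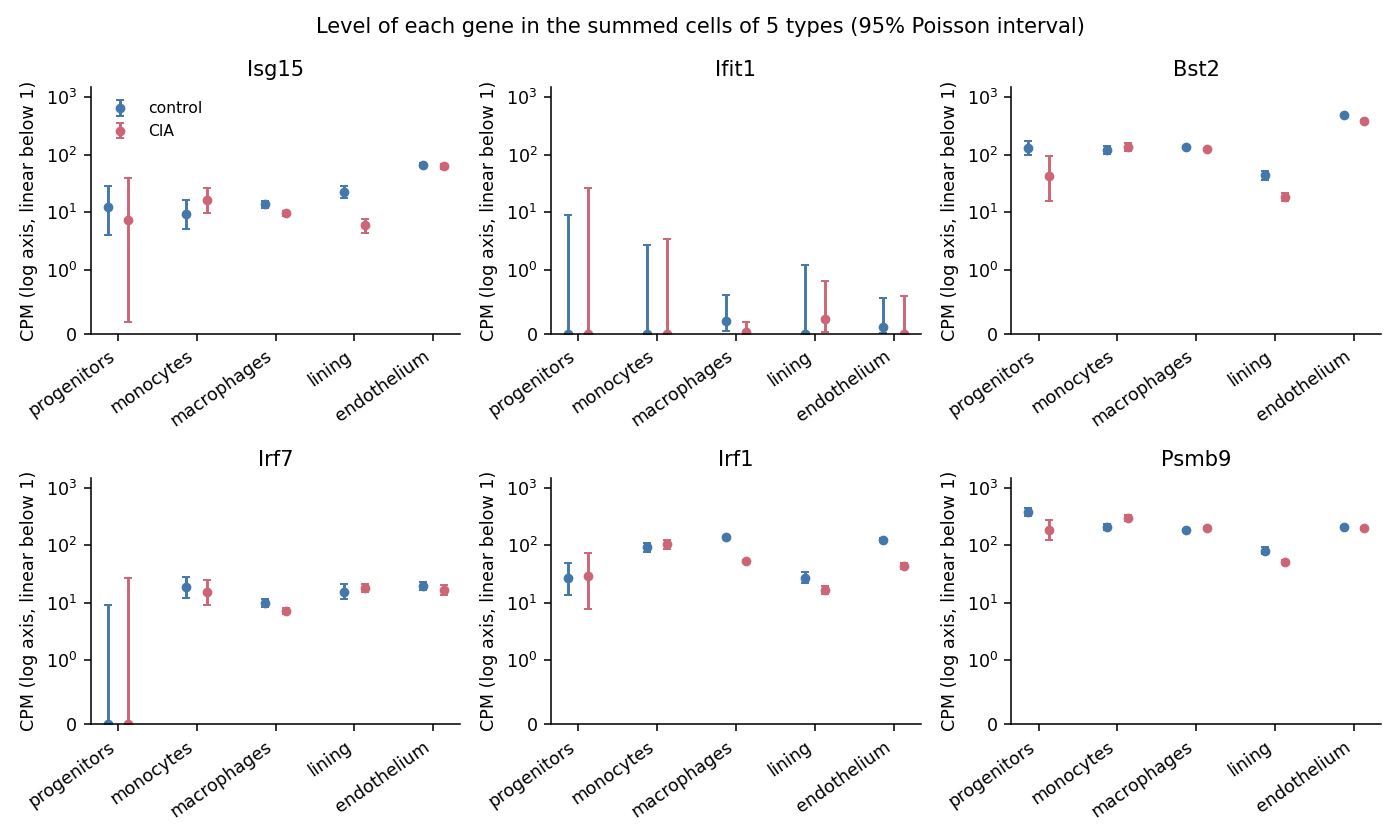
Level of each gene in the summed cells of each type (vertical axis, CPM, logarithmic above 1 and linear below), control in blue and CIA in red, with 95% Poisson intervals. Isg15 and Bst2 were highest in endothelium in both libraries, and Ifit1 stayed near 0 in every type.

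Bst2 was also highest in endothelium. Control lining was above macrophages and monocytes for Isg15 (17.7 to 28.9), with an interval overlapping that of progenitors. For Bst2, lining was below macrophages and monocytes in both libraries. Endothelium stood at 498 CPM in control and 383 CPM in CIA, macrophages at 138 and 127, monocytes at 123 and 137, and lining at 44.2 and 18.3. Macrophages and monocytes overlapped in both libraries. In a gate of 21 control and 6 CIA cells on plasmacytoid dendritic markers, a cell type known for interferon production, Bst2 reached 784 and 532 CPM and Irf7 reached 243 and 121 CPM. Those cells gave 0 Isg15 UMIs, where 3 UMIs would be 18.2 CPM in control and 72.5 CPM in CIA. In the 5 types the highest Irf7 value was 19.8 CPM (17.1 to 22.7), in control endothelium. Its interval overlapped those of CIA endothelium and of monocytes and lining in both libraries, which gave no order. Neither library had an Irf7 UMI in progenitors, below floors of 7.45 and 21.7 CPM that 3 UMIs would give.

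Psmb9 lay between 183 and 302 CPM in monocytes, macrophages and endothelium of both libraries. Lining was lower, at 81.4 and 51.5 CPM. Control progenitors had the highest value, 387 CPM (329 to 453), with an interval overlapping that of CIA monocytes (270 to 336). That value came from 24 cells, of which 5 held 50% of the UMIs. Irf1 reached 139 CPM in control macrophages, 125 in control endothelium and 93.8 in control monocytes, and 27.5 in lining and 27.3 in progenitors. Ifit1 was at the edge of detection: 10 UMIs in all control cells and 7 in all CIA cells. It had no UMI in monocytes of either library, which allows a share of cells with a UMI of up to 1.91% and 1.92% by the limit of 3 counts over the number of cells. No fold is given for it in the 5 types.

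Detection per cell was compared at equal depth: each cell was thinned to 4000 UMIs, which left out no cell. Bst2 was found in 81.5% of control and 79.1% of CIA endothelial cells (unthinned 95.2% and 93.3%). Isg15 was found in 20.2% and 16.8% of them (unthinned 39.5% and 30.5%). Fibroblast-gated cells served as the reference for free RNA and low expression; none of these genes is known to be absent from a cell type, so this is an upper guide. There, after thinning, Isg15 was found in 2.50% of control and 1.31% of CIA cells, Bst2 in 10.5% and 6.15%, Irf7 in 1.99% and 2.30%, Irf1 in 6.81% and 4.97%, and Psmb9 in 11.99% and 13.55%. The CIA lining values for Isg15 (1.83%), Bst2 (6.91%) and Irf1 (4.88%) were near these fibroblast shares. At least 3 of the 6 genes were found in 24.5% of control and 17.0% of CIA endothelial cells, in 8.56% and 5.92% of macrophages, in 8.28% and 11.5% of monocytes, and in 3.35% and 1.02% of lining cells.

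**Figure D2:**
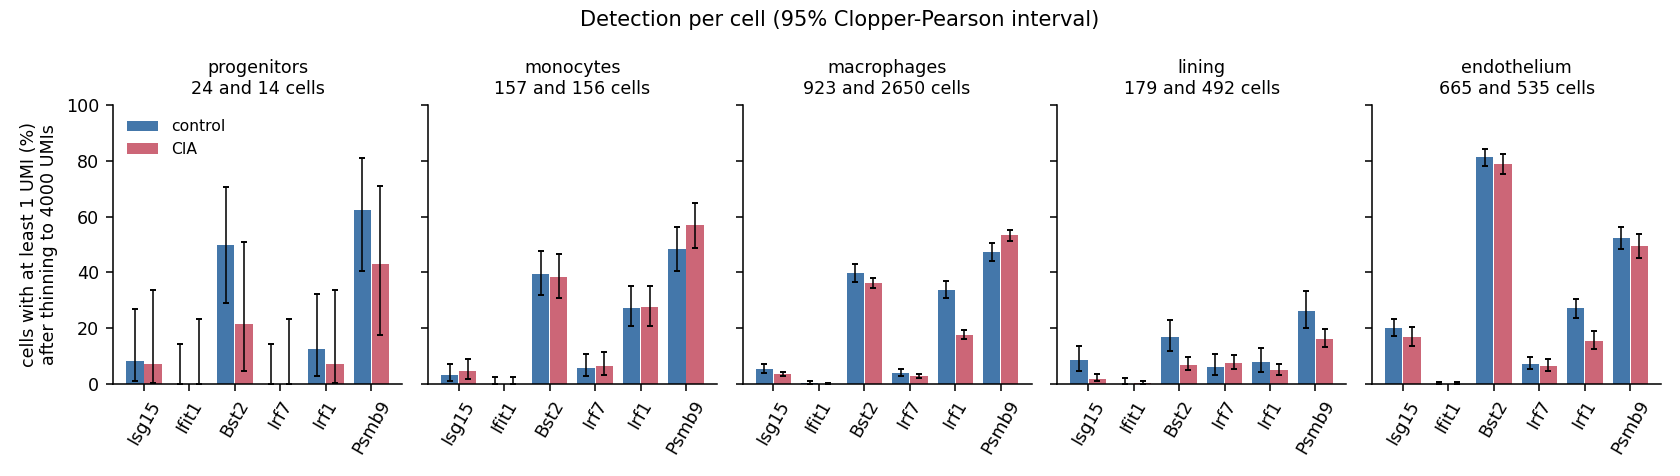
Share of cells with at least 1 UMI of each gene after thinning to 4000 UMIs (vertical axis, percent), control in blue and CIA in red, with 95% Clopper-Pearson intervals and the number of control and CIA cells above each panel. Bst2 in endothelium was found in 81.5% and 79.1% of cells, and Irf1 in macrophages in 33.7% and 17.7%.

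The CIA-to-control comparison used a size rule: at least 100 UMIs over both sums, a ratio of at least 2-fold, and an interval wholly beyond 1.5-fold. No gene of the 6 was higher by this rule in any type. In macrophages 1 of 5 measured genes was lower (Irf1); of all 9685 genes measured there, 3.47% were lower, 0.547% higher and 4.02% past the rule in either direction. In lining 2 of 5 were lower (Isg15 and Bst2), beside 2.84% lower, 1.21% higher and 4.05% in all of 7456 genes. In endothelium 1 of 5 was lower (Irf1), beside 1.56% lower, 0.336% higher and 1.90% in all of 8628 genes. In monocytes 0 of 3 passed, beside 4.48% lower, 1.33% higher and 5.81% in all of 2859 genes. In progenitors 0 of 1 passed, beside 11.1% lower, 1.64% higher and 12.7% in all of 732 genes. Since the genes were chosen from these data, the counts describe them and support nothing further.

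**Figure D3:**
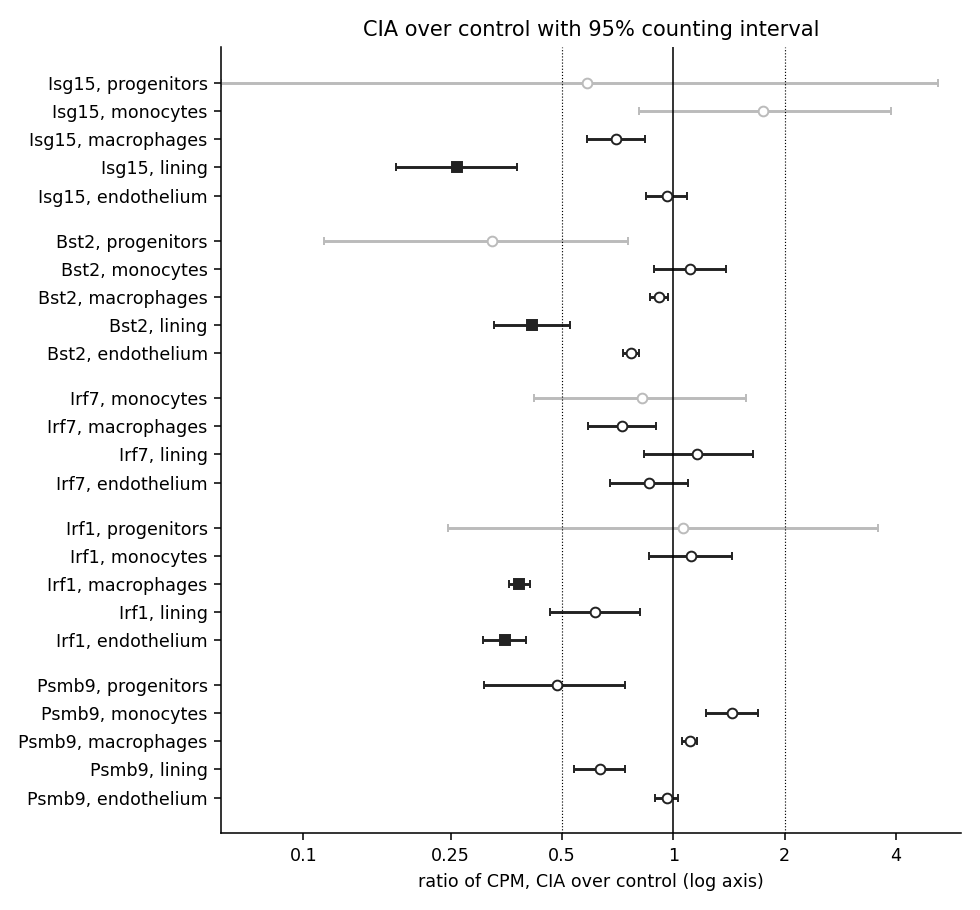
Ratio of CPM in CIA over control (horizontal axis, logarithmic) for each gene and type with more than 3 UMIs in a library, with 95% counting intervals; black marks have at least 100 UMIs, grey marks fewer, filled squares pass the size rule and dotted lines stand at 2-fold. The 4 filled squares are Irf1 in macrophages and endothelium, and Isg15 and Bst2 in lining, and all lie below 1. The lower bound for Isg15 in progenitors is cut at the edge.

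Irf1, the interferon gamma-responsive transcription factor, was lower in CIA in macrophages and in endothelium. In macrophages it stood at 139 CPM in control (2038 UMIs) and 53.3 CPM in CIA (1705 UMIs), 2.61-fold lower (2.44 to 2.78). The share of macrophages with Irf1 after thinning was 33.7% in control and 17.7% in CIA (unthinned 67.0% and 34.9%). In endothelium it stood at 125 CPM (1233 UMIs) and 43.9 CPM (276 UMIs), 2.85-fold lower (2.50 to 3.26), and was found in 27.1% and 15.5% of thinned cells. Both differences stayed past the rule in 13 of 13 settings that did not split the cells by their state. Among these, the looser 1.5-fold rule and the minimum of 20 UMIs could not undo a call. In monocytes Irf1 was 93.8 CPM in control and 104 CPM in CIA, a ratio of 1.11 (0.858 to 1.44). In chondrocyte-gated cells, outside the 5 types, it was 88.8 and 4.62 CPM (318 and 2 UMIs).

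Immediate-early genes, which cells switch on within a short time of a stimulus, tissue handling included, were also lower in CIA in these types. All 14 listed genes had ratios below 1 in macrophages, lining and endothelium, and 10, 8 and 11 of the 14 were lower by the size rule. In endothelium Atf3 was 6.06-fold lower and Ier3 4.18-fold lower, and in macrophages Atf3 was 3.77-fold and Fosb 3.30-fold lower. The summed list went from 14438 to 5697 CPM in macrophages, from 8700.1 to 2738 in endothelium and from 6243 to 2652 in lining. In monocytes, where Irf1 had a ratio near 1, the list stood at 13227 and 16162 CPM, and 1 of its 14 genes passed the rule, higher (Dusp1, 2.21-fold). In progenitors the list was 2639 and 825 CPM. All 3 of its measured genes were lower by the rule, with Junb 4.04-fold and Zfp36 3.91-fold lower. Irf1 there was 27.3 and 29.0 CPM on 11 and 4 UMIs. Its ratio of 1.06 had an interval (0.246 to 3.58) too wide to compare with the list. Summed chondrocyte markers also differed between the libraries in every gate: from control to CIA they were 255 and 17.1 CPM in macrophages, 489 and 12.6 in endothelium, 342 and 34.3 in lining, 640 and 26.6 in monocytes, and 1224 and 0 in progenitors. Their part in the Irf1 differences was not tested.

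Splitting each type at the median summed level of that list, a choice made after seeing the data, moved the Irf1 values. Endothelial cells below the median had 41.4 CPM in control (221 cells) and 45.8 CPM in CIA (379 cells), a ratio of 1.11 (0.872 to 1.41). Those above it had 155 and 38.9 CPM, 3.98-fold lower (3.12 to 5.14), and their summed list still differed, at 11062 and 5348 CPM. In macrophages the values were 46.2 and 27.5 CPM below the median (1.68-fold lower, 1.35 to 2.09) and 155 and 99.6 CPM above it (1.56-fold lower, 1.45 to 1.68), neither past the rule. In endothelium, below and above the median, Bst2 had ratios of 0.777 and 0.804, Psmb9 0.968 and 0.961, Irf7 0.923 and 1.01, and Isg15 0.945 and 1.201. In macrophages Irf7 had 0.524 and 0.944, Bst2 0.753 and 0.907, Isg15 0.778 and 0.850, and Psmb9 1.15 and 1.11. In lining Psmb9 had 1.18 (0.866 to 1.63) below the median and 0.457 (0.370 to 0.564) above it, where it passed the rule. Lining Irf7 had 1.72 and 1.06, Irf1 1.03 and 0.652, Bst2 0.389 and 0.432, and Isg15 0.197 and 0.342, the Isg15 sums being under 100 UMIs in both strata.

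The macrophage gate was also filled by different clusters in the libraries. Control macrophages lay mostly in cluster 4, led by Gdf15 and Areg (564 control and 341 CIA cells), and CIA macrophages mostly in cluster 5, led by Cd163 and the C1q genes (135 and 1383). Irf1 was 160 and 141 CPM in cluster 4, a ratio of 0.881 (0.794 to 0.976). It was 52.0 and 44.8 CPM in cluster 5, a ratio of 0.862 (0.685 to 1.10). In cluster 3, led by Ccl24 (181 and 881 cells), it was 133 and 39.7 CPM, 3.35-fold lower (2.96 to 3.80). The Irf1 difference was thus past the rule in 1 of these 3 clusters. From control to CIA, the summed immediate-early list was 9641 and 4390 CPM in macrophages of cluster 3. It was 18186 and 15863 CPM in those of cluster 4, and 4823 and 4369 CPM in those of cluster 5. Its part in the Irf1 values was not tested. With the gate split by C1q level, Irf1 was lower in both parts, 2.16-fold in cells with high C1q and 2.85-fold in cells with low C1q.

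**Figure D4:**
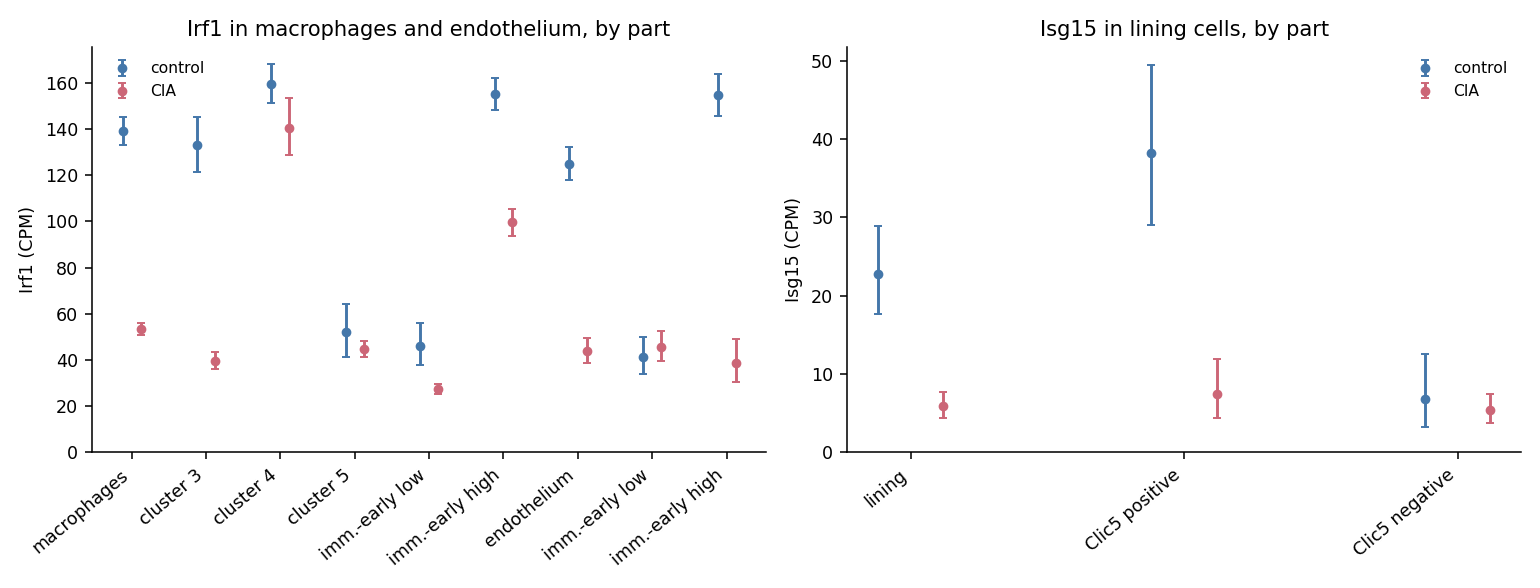
Left, Irf1 level (CPM) in macrophages and endothelium, whole, by cluster (macrophages) and by low or high summed immediate-early level; right, Isg15 level (CPM) in lining cells, whole and by Clic5; control in blue, CIA in red, with 95% Poisson intervals. Irf1 in endothelium differed between libraries in cells with high immediate-early level (155 and 38.9 CPM) and lay close together in the others (41.4 and 45.8 CPM), and Isg15 in lining differed in Clic5-positive cells (38.2 and 7.45 CPM).

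In lining cells Isg15 and Bst2 were lower in CIA. Isg15 was 22.8 CPM in control (68 UMIs) and 5.92 CPM in CIA (52 UMIs), 3.84-fold lower (2.64 to 5.63). A single control cell held 22.1% of the control UMIs, and without the top cell of each library the ratio was 0.307 (0.203 to 0.463). Bst2 was 44.2 CPM (132 UMIs) and 18.3 CPM (161 UMIs), 2.41-fold lower (1.90 to 3.05). Neither passed the rule when whole clusters replaced the gate (ratios of 0.877 and 0.724) or on thinned sums (0.218 and 0.404). The clusters used did not hold the same cells as the gate, and left out cluster 2 with 52 control and 131 CIA lining cells. The thinned ratios were no nearer 1 than those of the gate, and thinning leaves fewer UMIs. After thinning, Isg15 was found in 8.38% of control and 1.83% of CIA lining cells, and Bst2 in 16.8% and 6.91%. Psmb9 was 81.4 and 51.5 CPM, a ratio of 0.633 (0.540 to 0.742), and Irf1 27.5 and 16.9 CPM, a ratio of 0.614 (0.466 to 0.814). Irf7 was 15.7 and 18.2 CPM, a ratio of 1.16 (0.832 to 1.64) that did not pass the rule; it was 2.35 (0.899 to 8.76) when whole clusters replaced the gate.

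The lining gate did not hold the same cells in both libraries. Cluster 11, led by Rab3b and Clic5, held 102 of the control and 13 of the CIA lining cells, and cluster 12, led by Cldn11, held 16 and 336. Clic5, which marks lining cells, was present with at least 2 UMIs in 111 control and 130 CIA cells. In these Isg15 was 38.2 and 7.45 CPM, a ratio of 0.195 (0.106 to 0.340) that did not reach 100 UMIs. Bst2 was 58.6 and 20.6 CPM and Psmb9 113 and 49.5 CPM, 2.85-fold and 2.27-fold lower and both past the rule. In Clic5-negative cells (68 and 362) Isg15 was 6.81 and 5.39 CPM, a ratio of 0.791 (0.383 to 1.79), Bst2 had a ratio of 0.599 and Psmb9 of 1.06, and no gene of the 6 passed the rule. Irf7 in these cells was 6.13 and 16.6 CPM, on 9 and 108 UMIs, a ratio of 2.71 (1.38 to 6.09). Within cluster 11 the Isg15 ratio was 0.625 (0.125 to 1.92), on 58 and 3 UMIs, and Irf1 was 40.3 and 280 CPM, on 54 and 31 UMIs in 102 and 13 cells. The summed immediate-early list in those cells was 8371 and 26463 CPM. Summed fibroblast markers in the lining gate were 34734 CPM in control and 55509 CPM in CIA, and summed monocyte markers, whose F13a1 is among the leading genes of cluster 11, were 707 and 97.1 CPM. The part of these cells in the Isg15 and Bst2 differences was not tested further.

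In monocytes 4 of the 5 genes with a ratio lay above 1, but the interval lay above 1 only for Psmb9. Psmb9 was 210 CPM in control (288 UMIs) and 302 CPM in CIA (329 UMIs), a ratio of 1.44 (1.22 to 1.69), short of the 2-fold rule. It was found in 48.4% and 57.1% of thinned monocytes. Isg15 was 9.46 and 16.5 CPM on 13 and 18 UMIs, a ratio of 1.74 whose interval (0.808 to 3.87) includes 1. Bst2 and Irf1 each had a ratio of 1.11 (0.885 to 1.39 and 0.858 to 1.44), and Irf7 had 0.824 (0.419 to 1.58). Of the 33 other interferon-related genes measured in monocytes, 22 had a ratio above 1, with a median log2 ratio of 0.26 against -0.03 for all measured genes. By the size rule 2 of them were higher: the chemokine gene Cxcl10 (2.36-fold) and the class I gene RT1-S3 (2.20-fold). Socs1 (2.95-fold), which encodes a feedback inhibitor of JAK kinases, was the 1 that was lower. Of all genes measured there, 1.33% were higher and 4.48% lower. Summed erythroid markers in the monocyte gate were 69.1 CPM in control and 960 CPM in CIA, and summed neutrophil markers 3717 and 5009 CPM; their part was not tested.

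Myeloid progenitors were too few for a call on 5 of the 6 genes. Psmb9 was 387 CPM in control (156 UMIs) and 188 CPM in CIA (26 UMIs), a ratio of 0.486 (0.308 to 0.739). Bst2 was 134 and 43.4 CPM, on 54 and 6 UMIs, a ratio of 0.324 (0.114 to 0.752). The median log2 ratio of all 732 measured genes in this gate was -0.58, and when the scaling left out the 50 most abundant genes it was -0.14 and the Psmb9 ratio was 0.663 (0.42 to 1.01). Isg15 had 5 and 1 UMIs and gave no direction. The gate named for progenitors drew on different clusters: 22 of the 24 control cells lay in cluster 6, whereas 7 of the 14 CIA cells lay in cluster 10, whose leading genes include defensins, and summed neutrophil markers were 293 CPM in control and 67787 CPM in CIA. Among gated cells of cluster 6 alone (22 and 6) Psmb9 was 403 and 353 CPM, a ratio of 0.878 (0.539 to 1.37).

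Cluster 6 as a whole, with 279 control and 152 CIA cells, gave another Isg15 value. It held 22 Isg15 UMIs in control and 111 in CIA, 7.73 and 96.5 CPM, a 12.5-fold higher level (7.85 to 20.7). A pair of CIA cells held 53 and 32 of those UMIs, 76.6% of the total. Neither passed the progenitor gate, the pair had 1 UMI of granule markers together, and the first had 8 UMIs of Ccr7 and 485 of Cd74, genes known from antigen-presenting cells. Without the pair the CIA level was 22.9 CPM, and without the top pair of control cells the control level was 6.02 CPM. Cluster 6 mixes mast, natural killer, plasmacytoid and lymphoid marker genes among its leading genes, so its sum is not that of a single cell type.

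In macrophages Isg15 was 13.7 and 9.60 CPM, a ratio of 0.700 (0.584 to 0.841), and Irf7 10.03 and 7.29 CPM, a ratio of 0.727 (0.589 to 0.900). Bst2, at 138 and 127 CPM, and Psmb9, at 183 and 202 CPM, had ratios of 0.915 and 1.11. In endothelium Isg15 had a ratio of 0.960 (0.846 to 1.09), Irf7 0.860 (0.673 to 1.09), Psmb9 0.960 (0.894 to 1.03) and Bst2 0.769 (0.732 to 0.808). None of these passed the rule. The endothelial level of Isg15, the highest of the 5 types, lay close together in both libraries while Irf1 in the same cells did not.

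Few endothelial cells and macrophages held 2 or more Isg15 UMIs after thinning, although 20.2% of control and 16.8% of CIA endothelial cells held at least 1. The few cells with 2 or more thinned Isg15 UMIs were set beside the cells with none for other interferon-induced transcripts. In endothelium these were 47 control and 38 CIA cells. Their Irf7 level was 36.7 CPM against 18.2 in control and 52.1 against 14.1 in CIA. Rtp4, another interferon-induced gene, stood at 73.4 against 25.4 and 113 against 27.0 CPM, and Bst2 at 615 against 476 and 477 against 368 CPM. In macrophages, 11 control and 10 CIA cells had 2 or more. There Irf7 was 86.7 against 9.19 CPM in control and 66.5 against 7.16 in CIA, and Ifit3, an antiviral gene of the same family as Ifit1, 78.0 against 4.95 and 77.6 against 5.15 CPM. Bst2 in macrophages lay close together, at 147 against 139 and 133 against 126 CPM. Both libraries held such cells. These are sums over cells picked by their Isg15 count and carry no replicate check.

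The wider interferon pathway was described by lists of 114 genes besides the 6, of which 96 are in both files. Of the 10 interferon ligand genes listed, 2 were in both files and neither reached 100 UMIs in any type. Receptors and their kinases were measured for 8 of 9 genes in macrophages and 9 of 9 in endothelium, and none passed the rule in any of the 5 types. The antiviral genes induced by type I interferon, 29 measured in macrophages and 29 in endothelium, gave 0 higher and 0 lower in both. The cytokine feedback list had 3 of 5 lower in macrophages, with Socs1 4.39-fold and Cish 4.06-fold lower. In endothelium 2 of 5 were lower, with Socs1 4.52-fold and Socs3 3.92-fold lower. Of all genes measured, 3.47% were lower in macrophages and 1.56% in endothelium. Of the 13 measured genes associated with interferon gamma, 2 were lower in macrophages: Cd274, which encodes PD-L1 (4.00-fold), and Cxcl10 (3.39-fold). In endothelium, of 12 measured, Cxcl10 was 4.33-fold lower and the Fc receptor gene Fcgr1a 2.64-fold higher, beside 0.336% of all genes higher. In lining 1 of 48 was lower, the class I gene RT1-M3-1 (2.27-fold), a share no higher than the 2.84% of all measured genes that were lower there. Over all lists the median log2 ratio was 0.07 in macrophages against 0.11 for all genes, 0.06 against 0.10 in endothelium and -0.04 against -0.06 in lining.

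**Figure D5:**
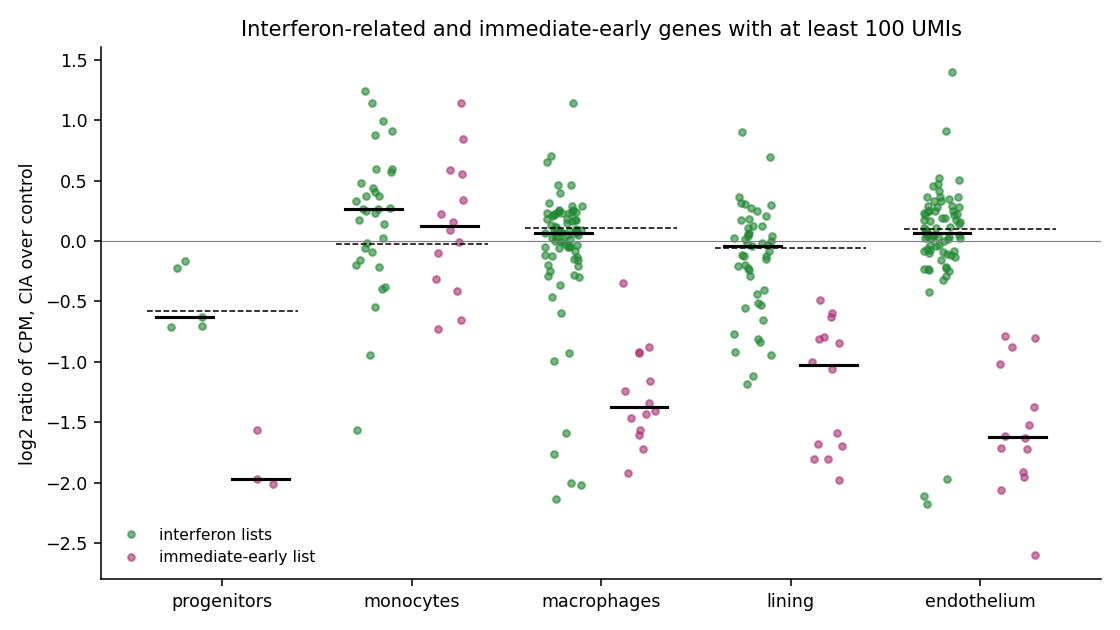
Log2 ratio of CPM, CIA over control (vertical axis), of each gene with at least 100 UMIs on the interferon lists (green) and the immediate-early list (purple) in each type; solid bars are medians of a list and dashed lines the median of all measured genes. The interferon lists lie close to the median of all genes in macrophages, lining and endothelium and above it in monocytes (0.26 against -0.03), while the immediate-early list lies below it in macrophages, lining, endothelium and, with 3 genes, progenitors (-1.97 against -0.58).

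Likeness of pattern was taken as Pearson r of log2(CPM + 1) over the 10 sums, 5 types in 2 libraries, among 11380 genes. Sums of a library share its depth and free RNA, and r is a description. The closest were Igfbp2 (r = 0.97), Dapk2 (0.95) and Ccdc113 (0.95) for Isg15. For Bst2 they were Sh3bgrl (0.97), Hoxb4 (0.96) and Gbp2 (0.95). For Irf7 they were Opa3 (1.00), Wdr20 (0.99) and Plcb3 (0.98), values that rest on its 0 UMIs in both progenitor sums. For Irf1 they were AABR07031480.1 (0.91), Icam1 (0.90) and Ppp1r15a (0.89), and for Psmb9 they were Mrps6 (0.98), Mfsd13a (0.95) and Nhej1 (0.94). Among the 6 genes themselves, Ifit1 left out, r was 0.78 between Isg15 and Bst2, 0.68 between Bst2 and Irf1, and 0.67 between Bst2 and Psmb9. It was 0.49 between Irf1 and Psmb9, 0.39 between Irf7 and either Isg15 or Irf1, and 0.36 between Isg15 and Irf1. It was 0.20 between Isg15 and Psmb9 and between Bst2 and Irf7, and -0.41 between Irf7 and Psmb9. The r values of Irf7 with the other genes also include both progenitor sums, where Irf7 had 0 UMIs and Psmb9 had its highest value, in control.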

How the data were processed

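Single-cell RNA was measured in 2 libraries of rat cartilage, 1 per group. The authors deposited raw UMI counts per gene and cell; per the submitters' processing notes the build was mRatBN7.2, and per the labels' protocols the kit was version 2 of the Chromium 3' reagents. No aligner or counter is named by those sources. The deposited counts total 76927821 (control, 5456 barcodes, median 11873) and 105752977 (CIA, 8622 barcodes, median 10541).

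Barcodes under 200 genes or over 20% mitochondrial UMIs were removed (45 and 47), and doublets called with Scrublet in scanpy 1.11.5 were left out (62 and 166). Types were gated on marker genes: progenitors 3 of 7 markers with 1 UMI and 500 CPM over the list; monocytes Fcnb at 1000 CPM and 2 of 5; macrophages 4 of 12 with 2 UMIs; lining Prg4 at 10000 CPM, 3 of 6 with 2 UMIs and Col2a1 under 1000 CPM; endothelium 5 of 12 with 2 UMIs. Cells passing 2 gates were left out. Cuts were set after the markers' values were seen, not on the 6 genes. Leiden clusters (resolution 0.5, 15 neighbours, 30 components, 2000 variable genes) described each gate. UMIs were summed per library and type and divided by the total of the 18147 shared genes; ratios carry exact conditional binomial intervals, shares Clopper-Pearson intervals. PCR duplicates are handled by the UMIs, and intervals cover counting error only. The calculation was tested on simulated Poisson counts, which do not model the gathering of UMIs in few cells. TMM factors came from edgeR 4.0.16 as an alternative.

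The 6 genes and all lists were chosen with earlier results of these data known. Beside the 6, the text names at most 2 genes per list, type and direction with the largest fold past the size rule, and for each of the 6 the most similar genes. Other genes are named only as markers, as leading genes of a cluster, or beside Isg15-high cells and the pair of cells of cluster 6 (Rtp4, Ifit3, Ccr7, Cd74), which were picked after their values were seen.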

Additional observations from a re-analysis of the deposited data

Results flagged for a closer look

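Psmb9, the immunoproteasome subunit gene, had intervals on opposite sides of 1 in different types. The 6 genes were chosen from these data for opposite directions by type, so this repeats that choice. Its CIA-to-control ratio was 1.44 in monocytes and 1.11 in macrophages, and 0.486 in myeloid progenitors and 0.633 in lining. The median log2 ratio of all measured genes was 0.11 in macrophages, -0.58 in progenitors, -0.03 in monocytes and -0.06 in lining; the Psmb9 log2 ratios were 0.15, -1.04, 0.53 and -0.66, and in macrophages and progenitors the Psmb9 interval included that median. The difference between types was not tested, since each group is 1 library. In lining the ratio was 1.06 in Clic5-negative cells, and in progenitors it was 0.878 among gated cells of cluster 6.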

How the results depend on the processing

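No paired analysis was possible because each group is 1 library, and no replicate could be left out. Clustering gave no progenitor value, since no cluster was mostly gated progenitors. Past the size rule, progenitors gave 93 genes, and 48 with TMM factors, 39 without the 50 most abundant genes in the total, 32 with the looser gate, 148 without the top cell, 189 at 20 UMIs, 274 at 1.5-fold and 32 thinned; higher genes were 12.9% of the calls, 33.3% with TMM and 59.0% without the 50 genes, and the median log2 ratio moved from -0.58 to -0.36 and -0.14. Monocytes gave 166, and 286 at 20 UMIs, 431 at 1.5-fold, 101 thinned and 99 in cells of high immediate-early level. Macrophages gave 389, and 931 at 1.5-fold and 130 in cells of low immediate-early level. Lining gave 302, and 80 by clusters, 512 at 20 UMIs, 788 at 1.5-fold, 150 thinned, 157 in Clic5-negative cells and 169 in cells of low immediate-early level; higher genes were 29.8% of the calls and 42.7% with TMM, and the median moved from -0.06 to 0.06. Endothelium gave 164, and 248 at 20 UMIs, 459 at 1.5-fold, 83 thinned and 60 in cells of low immediate-early level.

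Of the 6 genes, lining had 2 past the rule, 1 with the stricter gate, 0 by clusters, 4 at 1.5-fold, 0 thinned, 0 in Clic5-negative cells and 1 in cells of low immediate-early level. By clusters the lining ratio was 0.877 for Isg15 and 0.724 for Bst2. Progenitors had 0, and 1 at 1.5-fold. Macrophages had 1, and 0 in cells of low and 0 in cells of high immediate-early level. Endothelium had 1, and 0 in cells of low immediate-early level, where the Irf1 ratio was 1.11, above 1. The cause was not tested. Thinning and splits also leave fewer UMIs. The share of all genes past the rule in each setting is not given beside these counts, so they are not read against a background. In the main setting that share was 4.05% in lining, 12.7% in progenitors, 4.02% in macrophages and 1.90% in endothelium. Splits by cell state and leaving out cells of shared barcodes were chosen after seeing the data, and the latter moved no ratio of the 6 beyond its interval.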
